A study of Mus musculus with 6 samples.

Results

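The genes described here are 10 components of Notch signalling, taken by name from the 56305 genes measured: the receptors Notch1, Notch2, Notch3 and Notch4, the ligands Jag1, Jag2 and Dll4, and the target genes Hes1, Hey1 and Heyl. They were taken as named parts of the pathway, with earlier results of these data known, and all 10 were found in the table. Whole livers were sequenced from 6 male mice, 3 per genotype (WT and Vps15LKO), which were 5 weeks of age, had free access to food and were killed at ZT6, that is, Zeitgeber time 6 of the light cycle. Vps15LKO mice are AlbCre+;Vps15 f/f: the Cre recombinase is driven by the albumin promoter, which is active in hepatocytes and in the hepatoblasts that also give rise to cholangiocytes. Which cells of these livers carried the deletion was not measured here. The labels call the controls WT and do not give their Cre or floxed alleles. Each library comes from 1 liver, and the values are normalized counts, that is, reads per gene divided by a size factor for the library.

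Notch receptors are single-pass membrane proteins that bind ligands of the Jagged and Delta-like families on a neighbouring cell. Binding exposes the receptor to cleavage by an ADAM protease and then by γ-secretase, and the released intracellular domain enters the nucleus, where it joins the DNA-binding protein Rbpj and a Mastermind coactivator to switch on genes such as those of the Hes and Hey repressor family. In the liver, Notch signalling is best known for directing biliary cell fate and the formation of bile ducts. Endothelial cells express Notch1, Notch4 and Dll4, and mural cells express Notch3 and Heyl.

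The promoters of the ligands and receptors are the part of these genes where a shared regulatory sequence would be sought. The RefSeq promoter table (GRCm38.p6) held a window for 7 of the 10 genes, and Hes1, Hey1 and Heyl were not in it. The 250 bases before each start were searched on both strands for the Rbpj core GTGGGAA, its shorter form TGGGAA, which every match to the core also holds, the E-box CACGTG, and the Hes and Hey sites CACNAG (N-box) and CACGCG (class C site). Shown are the stretches outside annotated exons for Notch3 and Jag1, a receptor and a ligand called higher in Vps15LKO liver, and for Dll4, a ligand that was not called, each 5′ to 3′ on the strand of the gene with the matches in capitals. The Notch3 window is chr17:32166891-32167140 (minus strand), the Jag1 stretch is chr2:137116645-137116770 (minus strand) and the Dll4 stretch is chr2:119325565-119325783 (plus strand).
Notch3: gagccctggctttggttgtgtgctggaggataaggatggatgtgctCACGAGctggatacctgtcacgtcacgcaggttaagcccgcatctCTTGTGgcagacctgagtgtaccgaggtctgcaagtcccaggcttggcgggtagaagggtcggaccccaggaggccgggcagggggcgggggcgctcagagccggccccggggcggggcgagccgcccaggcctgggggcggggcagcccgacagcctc
Jag1: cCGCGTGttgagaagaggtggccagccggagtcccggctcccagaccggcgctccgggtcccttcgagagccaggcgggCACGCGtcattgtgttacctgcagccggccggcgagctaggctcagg
Dll4: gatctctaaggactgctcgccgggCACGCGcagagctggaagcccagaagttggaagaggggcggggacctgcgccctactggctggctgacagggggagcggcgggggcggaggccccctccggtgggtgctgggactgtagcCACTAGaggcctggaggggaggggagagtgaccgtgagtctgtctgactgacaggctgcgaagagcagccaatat
The Notch3 window held the N-boxes CACGAG and, on the other strand, CTTGTG. Jag1 had the class C site in both orientations, CGCGTG and CACGCG, and Dll4 had 1 class C site and the N-box CACTAG. Over the whole 250 bases, Notch1 had 1 N-box, Notch2 had 1 N-box and 1 class C site, and Jag2 and Notch4 had no match. All 250 bases of the Jag2 window lay in annotated exons, and the Notch1 window lay inside the annotated gene. The Rbpj core, its shorter form and the E-box were in none of the 7 windows. Of all 32851 windows of this length, 5.42% held the core, 21.6% the shorter form, 6.02% the E-box, 36.7% the N-box and 7.62% the class C site. These are matches of letters, and binding was not measured here.

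The 6 libraries held between 16137093 and 18110223 reads on genes. The size factors were 0.742 to 0.801 in WT and 1.23 to 1.41 in Vps15LKO, so the scaling itself separates the genotypes. Pik3r4, which encodes Vps15, had normalized counts of 508, 573 and 460 in WT and 341, 362 and 355 in Vps15LKO, a log2 fold change of −0.54 (SE 0.11, adjusted p = 0.00207, limma), which became 0.19 when the libraries were scaled to equal total reads. Reads of the deleted part of the gene are not counted apart in the table. Of 15430 genes tested across the table with limma on log2(normalized count + 1), 66.5% were called, 33.5% higher and 33.0% lower in Vps15LKO. A call needed an adjusted p (Benjamini-Hochberg over all tested genes) under 0.05 and a fold of at least 1.2. With total-read scaling the calls were 66.7% higher and 11.1% lower, and this scaling moved the median log2 fold change of all genes from −0.02 to 0.70.

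Of the 10 Notch genes, 7 were called higher in Vps15LKO liver, namely Notch3, Notch4, Jag1, Jag2, Hes1, Hey1 and Heyl, against 33.5% of all tested genes. None was called lower, against 33.0%, and Notch1, Notch2 and Dll4 were not called. The same 7 genes had no overlap between the genotypes, with every Vps15LKO liver above every WT liver, as was the case for 36.4% of all tested genes. The median log2 fold change was 1.48 over the 10 genes and −0.02 over all tested genes. Jag2 and Hey1 passed the filter on low values through their Vps15LKO livers alone, so that they had to differ to be tested. In whole liver, a change in the number of cells of a type and a change in RNA per cell cannot be told apart, and this applies to every value given here.

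**Figure D1:**
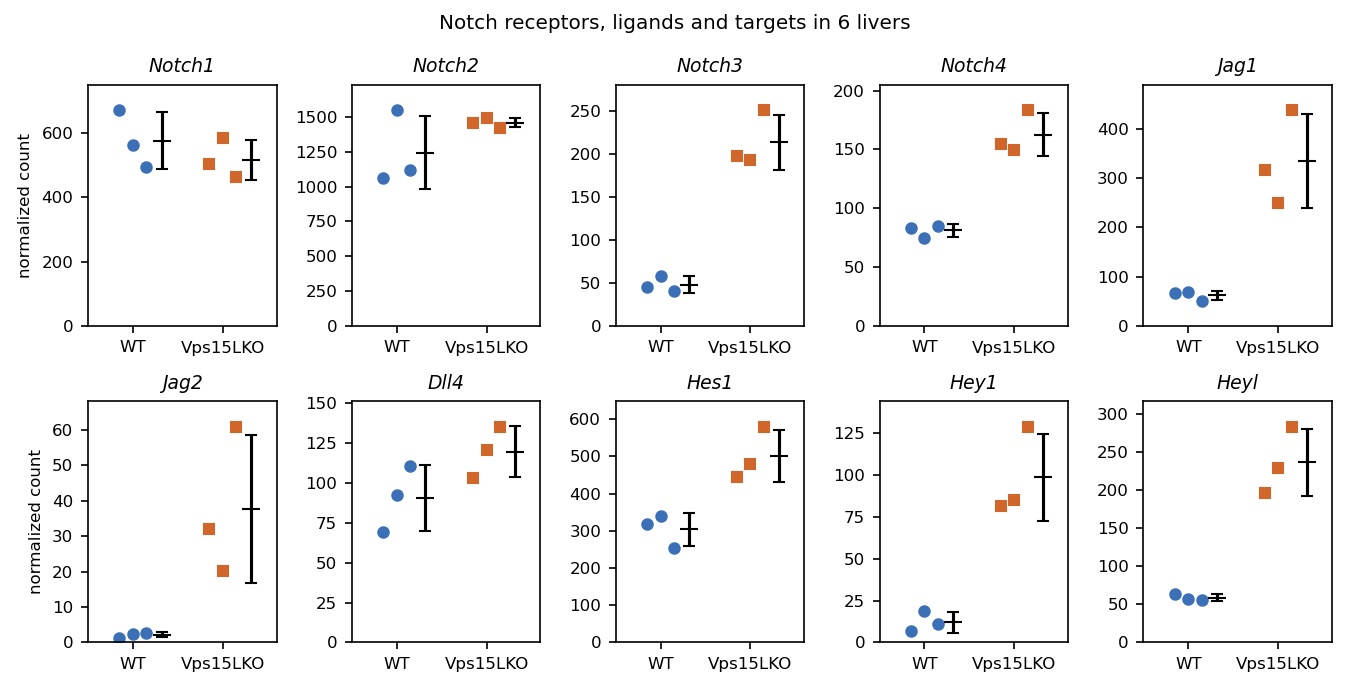
Normalized counts (y axes, linear from 0) of the 10 genes in each WT liver (circles) and each Vps15LKO liver (squares), with the mean and SD (bars, n = 3). Notch1, Notch2 and Dll4 overlap between the genotypes, and the other 7 do not, with Jag2 going from 1.33 to 2.70 in WT to 20.3 to 60.8 in Vps15LKO.

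Among the receptors, Notch3 and Notch4 rose and the more abundant Notch1 and Notch2 were not called. Notch3 (chr17:32120820-32166852, minus strand, GRCm38), the receptor of mural cells, had normalized counts of 45.1, 58.7 and 40.4 in WT and 198, 193 and 251 in Vps15LKO. The lowest Vps15LKO liver was more than 3 times the highest WT liver. The means were 48.1 ± 9.49 and 214 ± 32.3 (SD, n = 3), 4.45-fold apart, with a log2 fold change of 2.14 (SE 0.19, adjusted p = 2.11e-05, limma). Notch4 (chr17:34564268-34588503, plus strand), a receptor found mainly in endothelium, had normalized counts of 83.5, 74.9 and 84.9 in WT and 155, 149 and 183 in Vps15LKO. The groups were well apart, with means of 81.1 ± 5.40 and 162 ± 18.2. The log2 fold change of Notch4 was 0.99 (SE 0.14, adjusted p = 0.000313, limma).

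Notch1 (chr2:26457903-26516663, minus strand) had normalized counts of 671, 565 and 495 in WT and 503, 585 and 464 in Vps15LKO. The groups overlapped, and the log2 fold change was −0.15 (SE 0.14, 95% interval −0.46 to 0.16, adjusted p = 0.352, limma). Notch2 (chr3:98013527-98150361, plus strand), the receptor whose loss is known to reduce bile ducts, had normalized counts of 1065, 1546 and 1120 in WT and 1458, 1489 and 1423 in Vps15LKO. WT replicate 2 was the highest of the 6 livers, and the other WT livers were below all Vps15LKO livers. The log2 fold change of Notch2 was 0.25 (SE 0.14, 95% interval −0.07 to 0.57, adjusted p = 0.148, limma), and without WT replicate 2 it was 0.41 with an adjusted p of 0.0070, which is a call. These intervals hold changes past the fold threshold, downwards for Notch1 and upwards for Notch2.

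Among the ligands, Jag1 and Jag2 rose and Dll4 was not called. Jag1 (chr2:137081456-137116644, minus strand), the ligand mutated in Alagille syndrome, in which bile ducts are scarce, had normalized counts of 66.3, 68.7 and 51.2 in WT and 317, 249 and 438 in Vps15LKO. The Vps15LKO livers spread more widely than the WT livers and all lay above them. Means were 62.1 ± 9.47 and 334 ± 95.7, a 5.39-fold difference, with a log2 fold change of 2.38 (SE 0.22, adjusted p = 2.70e-05, limma). Jag2 (chr12:112907819-112929776, minus strand), the second Jagged ligand, had 1, 2 and 2 reads in WT and 42, 25 and 86 reads in Vps15LKO. As normalized counts these were 1.33, 2.50 and 2.70 in WT and 32.1, 20.3 and 60.8 in Vps15LKO, so WT liver was near the lower limit of detection and the Vps15LKO livers differed among themselves. From the summed 5 and 153 reads the ratio was 17.8 (95% counting interval 7.45 to 55.5), which covers counting error only. The fitted log2 fold change of Jag2, which depends on the pseudocount, was 3.50 (SE 0.47, adjusted p = 0.000224, limma). Jag2 reached 20 normalized counts in no WT liver, so it was tested only because it is high in Vps15LKO. Dll4 (chr2:119325784-119335962, plus strand), a Delta-like ligand of endothelial cells, had normalized counts of 68.9, 92.4 and 111 in WT and 103, 121 and 135 in Vps15LKO. Only WT replicate 3 overlapped the Vps15LKO livers. The log2 fold change of Dll4 was 0.41 (SE 0.20, 95% interval −0.04 to 0.87, adjusted p = 0.0967, limma), and without WT replicate 3 it was 0.57 with an adjusted p of 0.0312, which is a call.

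All 3 target genes rose, Hes1 least and Hey1 most. Hes1 (chr16:30064384-30067796, plus strand), a repressor of the basic helix-loop-helix class that is expressed in many cell types, had normalized counts of 318, 340 and 255 in WT and 445, 479 and 579 in Vps15LKO. The groups did not overlap, with means of 304 ± 44.2 and 501 ± 69.7. This was a 1.65-fold difference, with a log2 fold change of 0.72 (SE 0.14, adjusted p = 0.00214, limma). Hey1 (chr3:8663359-8667256, minus strand), a related repressor known from vascular development, had 5, 15 and 8 reads in WT and 107, 105 and 182 reads in Vps15LKO. Its normalized counts were 6.63, 18.7 and 10.8 in WT and 81.7, 85.1 and 129 in Vps15LKO. The WT livers varied more in proportion than the Vps15LKO livers, and the groups were far apart. The means were 8.17-fold apart, with a log2 fold change of 3.01 (SE 0.36, adjusted p = 0.000124, limma). Hey1 reached 20 normalized counts in no WT liver, so it was tested only because it is high in Vps15LKO. Heyl (chr4:123233556-123249875, plus strand), the third Hey gene, had normalized counts of 63.6, 57.5 and 55.3 in WT and 196, 229 and 283 in Vps15LKO. The WT livers were within a narrow band and all Vps15LKO livers lay above it, with means of 58.8 ± 4.34 and 236 ± 43.7. The difference was 4.02-fold, with a log2 fold change of 1.97 (SE 0.16, adjusted p = 1.70e-05, limma).

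**Figure D2:**
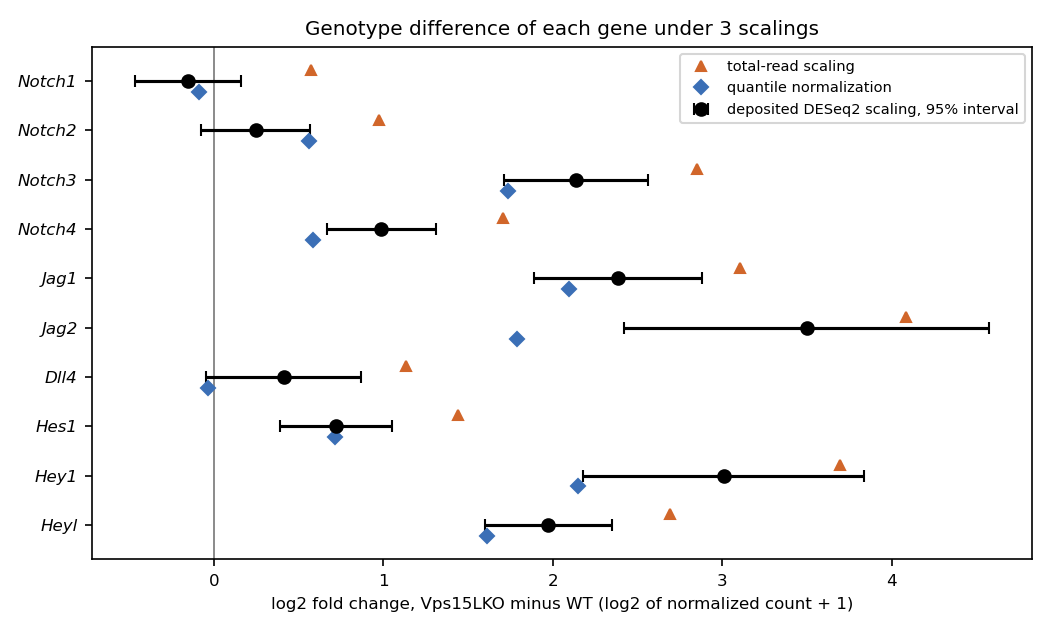
Log2 fold change of each gene, Vps15LKO minus WT (x axis, log2 of normalized count + 1), with the deposited DESeq2 scaling (black, bars are 95% intervals), total-read scaling (triangles) and quantile normalization (diamonds). The 7 called genes lie to the right of 0 under all 3, Notch1 goes from −0.15 to 0.57 with total-read scaling, and Dll4 goes from 0.41 to −0.032 with quantile normalization.

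The direction of the 7 called genes was the same under each scaling tried, while that of Notch1 and Dll4 was not. Over the 5 scalings the log2 fold change ran from 1.73 to 2.85 for Notch3, from 0.59 to 1.71 for Notch4, from 2.10 to 3.10 for Jag1 and from 1.79 to 4.08 for Jag2. It ran from 0.71 to 1.44 for Hes1, from 2.15 to 3.69 for Hey1 and from 1.61 to 2.69 for Heyl. With total-read scaling all 10 genes were called higher, with 0.57 for Notch1, 0.97 for Notch2 and 1.13 for Dll4, where 66.7% of all genes were. Relative to the median of all genes under that scaling, the values were −0.13 for Notch1, 0.27 for Notch2 and 0.43 for Dll4. Notch2 was also called higher with upper-quartile scaling (0.37), which moved the median of all genes from −0.02 to 0.11, and with quantile normalization (0.56), under which 30.4% of all genes were called higher and 37.6% lower.

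The order of the 10 genes by level, given as normalized counts per kb of exon, differed between the genotypes. In WT liver Hes1 (149 ± 21.7) and Notch2 (115 ± 24.4) were highest and overlapped each other. Notch1 followed at 40.5 ± 6.23 and Dll4 at 23.5 ± 5.41 per kb. Jag1 (10.7) overlapped both Heyl (11.5) above it and Notch4 (10.1) below it. Notch3 (5.94) and Hey1 (3.69) were lower and overlapped each other, and Jag2 was lowest at 0.312 per kb. In Vps15LKO liver Hes1 (246 ± 34.2) and Notch2 (135 ± 3.04) were again highest but no longer overlapped. Next came Jag1 (57.4), Heyl (46.2), Notch1 (36.4), Dll4 (31.1), Hey1 (30.2) and Notch3 (26.4 per kb), each overlapping the next. Notch4 (20.2) and Jag2 (5.42 per kb) were below them.

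Expressed as shares within a liver, which do not depend on the scaling between libraries, the make-up of each role differed between the genotypes. Among the ligands, Dll4 held 60.7%, 66.4% and 75.8% of the summed level per kb in WT and 31.2%, 40.7% and 29.5% in Vps15LKO. Jag1 held 38.6%, 32.6% and 23.2% in WT and 63.4%, 55.5% and 63.2% in Vps15LKO. The ligand with the largest share was therefore Dll4 in all 3 WT livers and Jag1 in all 3 Vps15LKO livers, and Jag2 went from a mean of 0.887% to 5.50%. Among the receptors, Notch2 kept the largest share, with means of 66.7% and 62.0% that overlapped between livers. Notch1 went from 23.8% to 16.7%, Notch3 from 3.44% to 12.1% and Notch4 from 5.96% to 9.24%. Among the targets, the share of Hes1 was 90.7% ± 0.830 in WT and 76.4% ± 1.29 in Vps15LKO (SD, n = 3). Hey1 went from 2.23% to 9.26% and Heyl from 7.06% to 14.3%. The shares of a role add up to the whole, so a rise of any gene lowers the others. The share of Hes1 thus fell although its normalized counts rose, and the 10 comparisons are not separate results. For 9 of the 10 shares the livers did not overlap, each with a two-sided exact permutation p of 0.1 (0.111 adjusted over the 10 comparisons). This is the smallest p that 3 against 3 livers allow, so that none could pass 0.05, and the share of Notch2 had an exact p of 0.3.

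**Figure D3:**
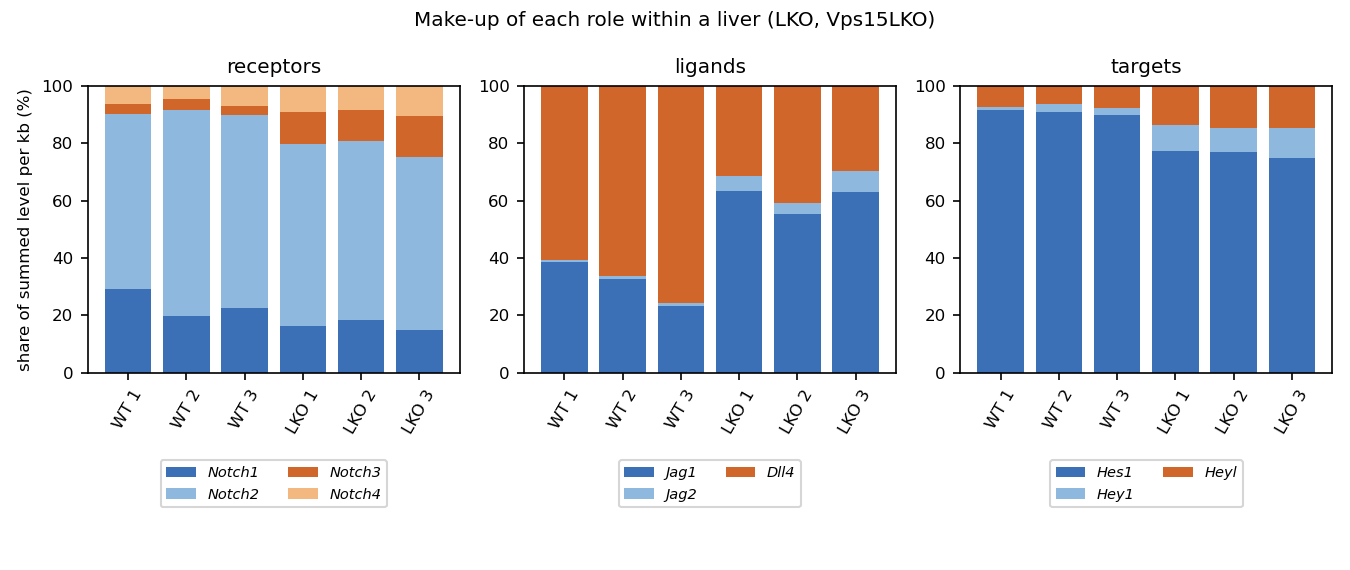
Share (y axis, % of the summed normalized counts per kb of exon) of each gene within the receptors, the ligands and the targets, with 1 bar for each WT and each Vps15LKO (LKO) liver. Jag1 takes 23.2% to 38.6% of the ligand sum in WT and 55.5% to 63.4% in Vps15LKO, and Hes1 falls from 89.9% to 91.5% of the target sum to 75.0% to 77.5%.

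The Vps15LKO livers were not alike for these genes. Vps15LKO replicate 3 had the highest normalized count of the 3 Vps15LKO livers for 8 of the 10 genes (80.0%), Notch1 and Notch2 being the exceptions. The same liver was highest for 35.0% of all tested genes and for 55.2% of the genes called higher. Summed marker levels, given as normalized counts, also set this liver apart from replicates 1 and 2. It was highest for cholangiocyte markers (24835 against 16791 and 13225) and for stellate and mural cell markers (34956 against 30018 and 32230). It was lowest for hepatocyte markers (790680 against 982397 and 1208051) and for macrophage markers (15173 against 20388 and 19816). It was also lowest for endothelial markers (11736 against 12370 and 13520) and for lymphocyte markers (136 against 175 and 146). Without this liver the 7 genes were still called higher.

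The other genes of the pathway were taken as 9 lists by function, 61 genes in all, of which 49 passed the filter on low values. Of these, 26 were called higher, 10 lower and 13 neither, with a median log2 fold change of 0.43. Among all genes 33.5% were called higher and 33.0% lower. With total-read scaling 39 of the 49 were higher and 3 lower, beside 66.7% and 11.1% of all genes, and with quantile normalization 27 and 11, beside 30.4% and 37.6%. Of the 26 called higher, Neurl1a and Gata3 reached 20 normalized counts in no WT liver, so they were tested through their Vps15LKO livers alone and had to be higher to be tested. The 3 genes that were lower with total-read scaling were Furin, Psen2 and Hes6. Of the other 7 lower genes, Rfng, Aph1a, Tle1 and Itch stayed below 0 without a call, Mib1 (0.12) and Numb (0.16) were above 0 without a call, and Psenen (0.42) was called higher. Relative to the median of all genes under that scaling, Mib1 was at −0.59, Numb at −0.54 and Psenen at −0.29, close to their log2 fold changes with the deposited scaling. The counts that follow use the deposited scaling.

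Of the other ligands, Dll1 was the only 1 of 5 tested, with a log2 fold change of −0.05 and no call. Its value was 0.67, called higher, with total-read scaling and −0.54, called lower, with quantile normalization. Of the 6 enzymes that modify or cleave the receptor in the secretory pathway, 2 were higher and 2 lower. The higher ones were the Fringe glycosyltransferases Lfng (117 ± 11.9 to 311 ± 9.14 normalized counts, log2 fold change 1.41) and Mfng (1.40). Those lower were the Fringe gene Rfng (−0.85) and the proprotein convertase Furin (−1.10). The 3 Fringe genes thus did not move together.

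Of the 4 ubiquitin ligases for ligand endocytosis, the Neuralized genes were higher and Mib1 was lower. Neurl1a had normalized counts of 6.63, 8.74 and 14.8 in WT and 317, 237 and 304 in Vps15LKO, a log2 fold change of 4.75 (SE 0.28, adjusted p = 3.22e-06, limma, in a gene tested only because it is high in Vps15LKO). Neurl1b had a log2 fold change of 2.87, Mib1 of −0.61, and Mib2 was not called. Of the 9 genes for receptor shedding and γ-secretase, 5 were higher and 3 lower. The largest rises were those of the γ-secretase subunit Aph1b (log2 fold change 1.34) and of Adam10 (1.05), a protease that sheds the receptor ectodomain. The largest falls were those of Psen2 (−1.41), a catalytic subunit, and Aph1a (−0.81), and the remaining fall was that of the subunit Psenen (−0.31).

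In the nuclear activator complex, 3 of 5 genes were higher and none lower. Rbpj, the DNA-binding partner of the receptor domain, had normalized counts of 241, 279 and 268 in WT and 389, 344 and 360.0 in Vps15LKO (log2 fold change 0.47, SE 0.11, adjusted p = 0.00397, limma). The coactivators Maml2 and Maml3 had log2 fold changes of 1.36 and 0.78. Of the 5 corepressors, Tle3 was higher (0.78), Tle1 was lower (−0.80) and the other 3 were not called.

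Of the 10 negative regulators, 5 were higher and 2 lower. The largest rises were those of Numbl (log2 fold change 2.90) and the Deltex gene Dtx3 (2.60). Nrarp, a feedback inhibitor that is itself induced by Notch and is named here for that role after its values were seen, had normalized counts of 37.1, 28.7 and 36.4 in WT and 113, 143 and 175 in Vps15LKO. An antisense gene shares 2051 bases of its exons, and whether the counting used the strand is not given in the sources used here. Numb, which directs the receptor to degradation, fell by 0.56 on the log2 scale, and the ubiquitin ligase Itch by 0.87.

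Of the 7 other Hes and Hey genes, only Hes6 was tested, and it was lower. Hes6, which is known to oppose Hes1, had normalized counts of 1166, 921 and 1072 in WT and 252, 277 and 249 in Vps15LKO, a log2 fold change of −2.01 (SE 0.11, adjusted p = 2.37e-06, limma). It was lower under total-read scaling too, in which Hes1 was higher. Of the 10 other genes described as Notch targets, 8 were tested and all 8 were higher, beside 33.5% of all genes, Gata3 having been tested through its Vps15LKO livers alone. The largest rises were those of Spp1 (4.69), which encodes the secreted protein osteopontin, and Cdkn1a (4.30), an inhibitor of the cell cycle. Sox9 and Spp1 are among those also in the list of cholangiocyte markers, and the targets are known to answer to other signals as well.

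**Figure D4:**
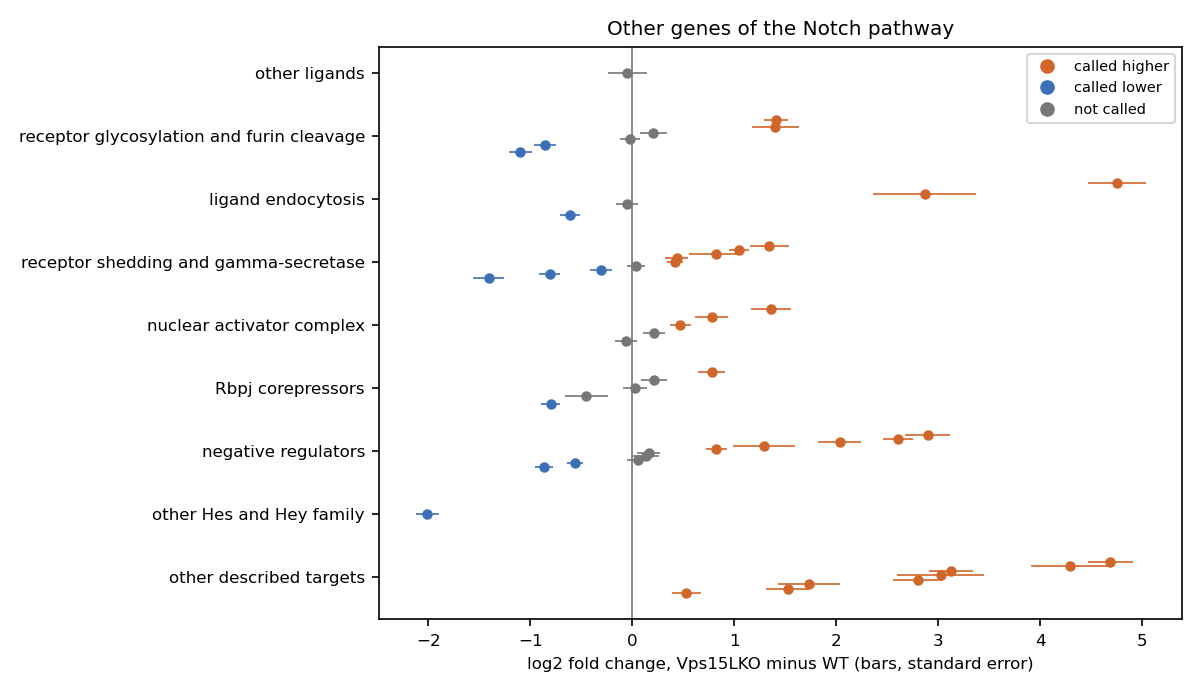
Log2 fold change, Vps15LKO minus WT (x axis), of the 49 tested genes in 9 pathway lists (y axis), with bars for the standard error and colours for genes called higher, lower or not called. The described targets are all to the right of 0, Hes6 is at −2.01, and the lists for receptor modification and cleavage hold genes on both sides.

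Markers of the cell types that carry Notch components moved with the genotype in different ways. The summed normalized counts of 14 endothelial markers were 12182 to 13545 in WT and 11736 to 13520 in Vps15LKO, with 6 markers called higher and 5 lower. With total-read scaling 11 were higher and none lower, where 66.7% of all genes were higher and 11.1% lower. Those of 10 stellate and mural cell markers were 7636 to 8020 in WT and 30018 to 34956 in Vps15LKO, and all 10 were called higher. Those of 10 cholangiocyte markers were 1396 to 1550 in WT and 13225 to 24835 in Vps15LKO, with all 9 that were tested called higher, though Cftr and Cldn4 were tested through their Vps15LKO livers alone. Cldn4 of this list had 3 reads or fewer in every WT liver. The sums of 8 hepatocyte markers went the other way, from 2709550 to 3151559 in WT to 790680 to 1208051 in Vps15LKO, with 7 called lower. The 8 macrophage markers, of which 6 were called higher, summed to 6374 to 7237 in WT and 15173 to 20388 in Vps15LKO. The 6 lymphocyte markers, with 3 of 4 tested called higher, summed to 66.3 to 97.1 and 136 to 175, and the 3 were tested through their Vps15LKO livers alone. With quantile normalization 1 lymphocyte marker was called higher and 1 lower, 7 macrophage markers higher and 1 lower, 7 endothelial markers higher and 2 lower and 5 hepatocyte markers lower, while the stellate and cholangiocyte counts were the same. No list had a marker at 3 reads or fewer in all 6 livers, and the part of these cell types in the changes of the Notch genes was not tested.

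Each Notch gene was also set against these sums within the same liver, a measure free of the scaling between libraries. Relative to the hepatocyte sum all 10 genes were higher in Vps15LKO without overlap, from 2.69 times for Notch1, 3.53 for Notch2 and 3.98 for Dll4 to 55.6 times for Jag2. That sum was itself 0.339 times WT in Vps15LKO, so a gene without change in normalized count is also higher on this measure. How many of all genes were higher on it was not counted. As a percentage of the endothelial sum, Notch1 was 4.52% ± 0.696 in WT and 4.12% ± 0.192 in Vps15LKO, and Dll4 was 0.712% ± 0.182 and 0.959% ± 0.169, both overlapping between genotypes. Notch4 was 0.637% ± 0.0750 and 1.31% ± 0.233 without overlap, 2.05 times higher in Vps15LKO, so it was higher relative to these markers as well. Notch2 overlapped, and the other 6 genes were 1.70 (Hes1) to 18.2 (Jag2) times higher without overlap. When each endothelial marker was left out of the sum in turn, an alternative added after the data were seen, as were the like ones below, the ratio ran from 0.867 to 0.946 for Notch1, from 1.28 to 1.40 for Dll4 and from 1.95 to 2.13 for Notch4.

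As a percentage of the stellate and mural cell sum, Notch3 was 0.613% ± 0.109 in WT and 0.659% ± 0.0599 in Vps15LKO, and Heyl was 0.752% ± 0.0704 and 0.725% ± 0.0786. The livers of the genotypes overlapped for both, and for Jag1, whose ratio was 1.29. Hey1 (1.97 times) and Jag2 (4.14 times) were higher, and Hes1, Notch1, Notch2, Notch4 and Dll4 were lower relative to this sum, all without overlap. The sum was itself 4.14 times WT in Vps15LKO, so a gene without change in normalized count is also lower on this measure. How many of all genes were lower on it was not counted. The values near 1 rested on which markers were summed. Leaving out the collagen gene Col3a1, 8.60% to 15.9% of the sum in WT and 30.5% to 32.7% in Vps15LKO, gave 1.40 times for Notch3, 1.25 for Heyl and 1.69 for Jag1, all without overlap. Leaving out Dcn, which encodes the matrix protein decorin, gave 0.731 for Notch3, which overlapped, and 0.655 for Heyl, which did not, and Hey1 then overlapped at 1.36 times.

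Relative to the cholangiocyte sum, Jag2 (1.34 times) and Hey1 (0.667 times) overlapped between the genotypes. Jag1 was 4.33%, 4.92% and 3.30% of it in WT and 1.89%, 1.88% and 1.76% in Vps15LKO, and was among the 8 genes that were lower. The sum was itself 12.2 times WT in Vps15LKO, so a gene without change in normalized count is also lower on this measure. How many of all genes were lower on it was not counted. Spp1 alone made up 35.3% to 38.6% of this sum in WT and 78.7% to 82.5% in Vps15LKO. Without Spp1 the direction of Jag1 turned, to 1.43 times higher without overlap, and Jag2 (4.40 times) and Hey1 (2.16 times) were higher without overlap. Notch3 and Heyl then overlapped, and Notch1, Notch2, Notch4, Dll4 and Hes1 were still lower. These ratios do not assign a gene to a cell type.

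**Figure D5:**
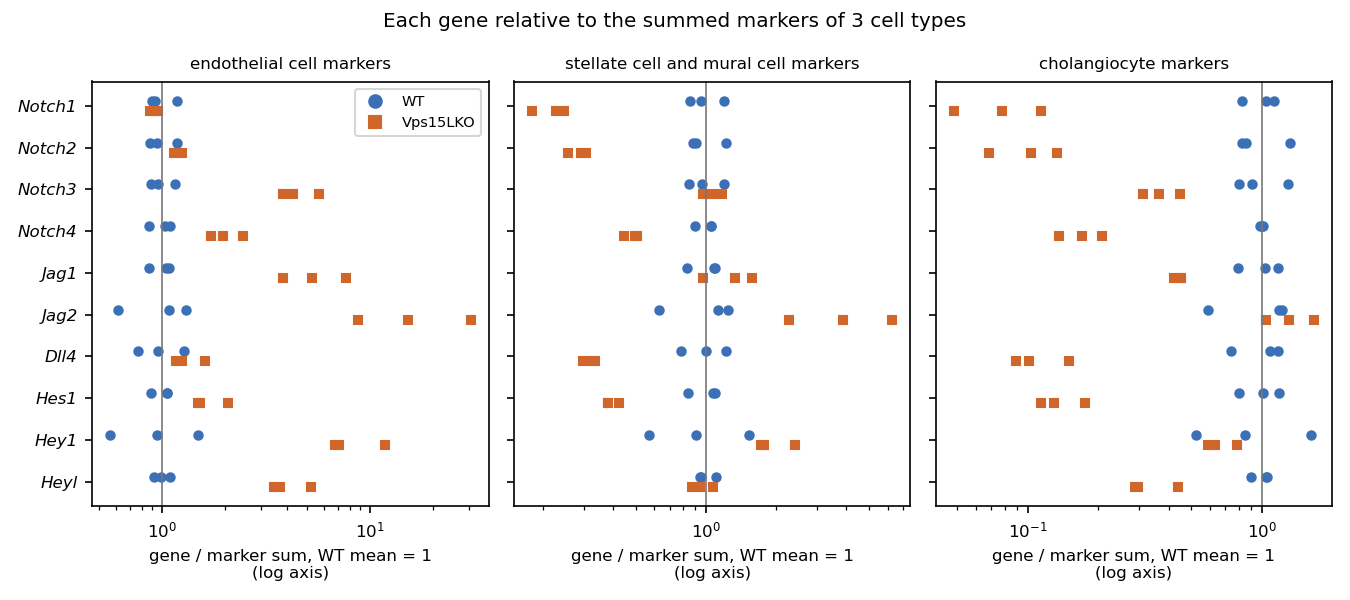
Each gene divided by the summed markers of endothelial cells, of stellate and mural cells and of cholangiocytes in the same liver (x axes, log scale, WT mean set to 1), for WT (circles) and Vps15LKO (squares). Notch1 and Dll4 overlap between genotypes against the endothelial sum, Notch3 and Heyl against the stellate and mural sum, and Jag2 and Hey1 against the cholangiocyte sum, of which Spp1 is 78.7% to 82.5% in Vps15LKO.

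Some reads may belong to overlapping genes. Exons of Notch1 share 1068 and 414 bases with 2 transcripts on the other strand, those of Notch3 share 488 bases and those of Dll4 214 bases with a transcript on the other strand, and those of Notch2 share 541 bases with a transcript on the same strand. Notch4, Jag1, Jag2, Hes1, Hey1 and Heyl share no exon bases with another annotated gene.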

How the data were processed

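Polyadenylated liver RNA of 3 WT and 3 Vps15LKO mice was sequenced, with groups and replicate numbers from the labels. Read filtering by the authors used SOAPnuke, alignment used HISAT2 and GRCm38, and counting per gene used featureCounts (Subread), and DESeq2 gave the normalization. The submitters' processing notes also name edgeR. Tool versions, and whether counting used the strand or multi-mapped reads, are not given in the sources used here. The deposited table holds a signal: reads per gene after division by 1 size factor per library, without a filter. Within 0.01, 100% of its values came out as whole reads, which were recovered. GENCODE M21 named 55227 of 56305 genes.

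Genes reaching 20 normalized counts in 3 or more of 6 livers were compared by limma 3.58.1 (R 4.3.3, trend) on log2(normalized count + 1), as described in the report. Count tests on the recovered reads were alternatives and called 10320 genes (edgeR 4.0.16 quasi-likelihood), 10028 (DESeq2 1.42.0) and 10294 (voom), against 10262 by limma. Tested on simulated data for Vps15LKO against WT, limma recovered 171 of 191 changed genes with 8 false calls among 15123. Few genes were changed in this simulation, and its size factors were known. It therefore does not give the error rate for these data, in which 66.5% of genes were called. Shares and counting intervals used Python 3.11.15 and scipy 1.17.1. Replicate numbers did not pair the livers: deviations from the group means of same-numbered livers correlated at −0.0099, −0.011 and 0.049. No libraries were copies of each other (chi-square per gene 14.6 to 40.8 between livers of a genotype). p-values measure the spread between these livers.

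Every Notch gene given by name was reported. Of each pathway list, the 2 largest rises and falls among called genes were named, and lists of 7 or fewer genes could be given whole, with marker lists described by counts and sums. The members and lists were chosen with earlier results of these data known. Promoter letters come from RefSeq (GRCm38.p6). Some genes of the lists are counted but not reported here by name.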

Additional observations from a re-analysis of the deposited data

How the results depend on the processing

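The 7 Notch genes called higher kept their direction and their call under every alternative in which they were tested (pseudocounts of 0.1 and 10, other filters, scalings, tests and leaving out each liver), except that a fold of at least 2 left 5 of them. A filter of 20 normalized counts in every liver removed Jag2 and Hey1, which reached 20 in no WT liver. Notch1 reversed with total-read scaling (0.57, called higher), which moves all genes upwards: relative to their median it was at −0.13 under both scalings. Dll4 reversed with quantile normalization (−0.032, not called), and the cause was not tested. Jag1 against the cholangiocyte marker sum reversed without Spp1, from a log2 ratio of −1.18 to 0.51. Between 7 and 8 genes were called higher when 1 liver was left out. Leaving out WT replicate 2 (Notch2, 0.41) or WT replicate 3 (Dll4, 0.57) gave the eighth. Over the whole table, 10262 genes were called, and 5185 with a fold of at least 2, while leaving out 1 liver gave 9098 to 10222. Total-read scaling called 10299 genes higher and 1712 lower, against 5163 and 5099. With the replicate number as a replicate block, 10048 genes and the 7 Notch genes were called, and since the numbers do not pair the livers this says nothing of pairing. With 3 livers a genotype, shares within a role cannot pass 0.05, and the 1 to 2 reads of Jag2 in each WT liver leave its fold within a wide interval.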

Other observations

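Several genes of the Notch family were too low to be tested and are given as values. Dlk1, a ligand-like protein of fetal liver, had normalized counts of 0, 3.75 and 2.70 in WT and 11.5, 8.10 and 33.9 in Vps15LKO, with the highest value again in Vps15LKO replicate 3. Hey2, the remaining Hey gene, had 3.98, 8.74 and 4.04 in WT and 8.40, 18.6 and 14.1 in Vps15LKO, and the groups overlapped. Hes7 had 0, 2.50 and 0 in WT and 6.11, 4.86 and 7.07 in Vps15LKO. Hes3, Hes5 and Helt had 3 reads or fewer in every liver, as did the ligands Dll3, Dlk2 and Dner.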
